A study of Saccharomyces cerevisiae with 2 samples.

Results

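Open reading frames that carry a suffixed systematic name and no standard symbol in the deposited tables, such as YPR036W-A, were followed in RNA sequencing of a mutant yeast strain and its parent. They were chosen by name alone: a systematic name with a hyphen and a final letter, outside the YKL and YHR names. The rule found 145 of the 5659 genes listed, and 14 further suffixed names in YKL or YHR were left out by it. ZGR3 is a mutant of ZTW1 with ZTW1 as its genetic background, and ZTW1 is the wild type strain. Both are bioethanol strains of the budding yeast Saccharomyces cerevisiae, and the mutation carried by ZGR3 is not given in the sources used here. Cultures of 25 mL were started at an optical density of 0.05 in YPD, which is rich in nutrients and holds glucose at 20 g/L. They were harvested on entry into early stationary phase, and poly(A) RNA was sequenced as 1 library per strain.

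A yeast systematic name gives the chromosome, the arm, the position along the arm and the strand of an open reading frame (ORF). A suffix letter was added where an ORF was recognised after its neighbours had been numbered, often because it was too short for the first annotation of the genome. Small ORFs of this kind were later found by comparison with other fungi, by expression profiling, by gene-trapping and by mass spectrometry of proteins. Several encode small membrane proteins of mitochondria, the endoplasmic reticulum or the vacuole, and others belong to Ty elements, retrotransposons whose Gag and Pol proteins package and copy their RNA.

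Of the 145, 131 lay outside Ty elements, with a median listed length of 207 bases and a range of 81 to 1392 bases. The other 14 were Gag-Pol ORFs of Ty elements of 4497 to 5409 bases. The median over all genes was 1230 bases. The label of small ORFs thus held for most of the 131, but not for the longest of them, YDR179W-A. The annotation behind the tables described 124 of the 145 as of unknown function. The newer RefSeq annotation, assembly R64, matched 142 of them, gave 121 the same length and gave 38 a standard name, which is added below in brackets. YPR108W-A, YLR466C-B and YOL013W-A had no match, and YBR196C-A was not analysed here.

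Reads assigned to genes numbered 4.61 M (M, mega) in ZGR3 and 4.66 M in ZTW1. RPKM, reads per kilobase of gene and per M assigned reads, was used for levels. For an ORF of the median length of the suffixed ORFs, 1 read was worth 0.991 RPKM in ZGR3 and 0.980 RPKM in ZTW1. For a gene of the median length of all genes it was worth 0.176 RPKM in ZGR3 and 0.174 RPKM in ZTW1. Each strain has 1 library, so the spread between cultures is unknown and no p-value is given. All intervals are exact 95% Clopper-Pearson intervals. They hold the error of counting reads and nothing else, and thus set 1 library against the other, not strain against strain. In a bulk culture, fewer cells with a transcript and less RNA per cell cannot be told apart.

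Most suffixed ORFs had low transcript levels, and a small number were among the abundant transcripts of the cell. Their median level was 6.57 RPKM in ZGR3 and 7.40 RPKM in ZTW1, against 30.8 RPKM in ZGR3 and 31.4 RPKM in ZTW1 over all genes. A level of at least 100 RPKM was found for 22 of them in ZGR3 and 24 in ZTW1, or 15.2% of them in ZGR3 and 16.6% in ZTW1. Over all genes these shares were 21.6% in ZGR3 and 22.0% in ZTW1. At the low end, 63 of them had at most 5 reads in ZGR3 and 66 in ZTW1, or 43.4% in ZGR3 and 45.5% in ZTW1. Over all genes, 3.71% in ZGR3 and 3.32% in ZTW1 had so few reads. The range was wide, since the highest reached 5223 RPKM in ZGR3 and 5489 RPKM in ZTW1 while others had no read in a library.

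Together the suffixed ORFs held 20185 reads in ZGR3 and 21421 reads in ZTW1. This was 0.438% of the ZGR3 library (95% interval 0.432 to 0.444) and 0.460% of the ZTW1 library (0.453 to 0.466). The 5 ORFs with the most reads held 55.1% of the reads of the whole set in ZGR3 and 53.6% in ZTW1, and the first 12 held 77.8% in ZGR3 and 77.3% in ZTW1. The percentage of an ORF's length covered by reads followed its depth: its median was 58.5% in ZGR3 and 61.8% in ZTW1, against 94.9% in ZGR3 and 95.5% in ZTW1 over all genes.

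Genes of like length with a standard symbol in the tables were higher. The 442 such genes of at most 462 bases, the length that 90% of suffixed ORFs do not exceed, had a median of 71.8 RPKM in ZGR3 and 84.2 RPKM in ZTW1. The 79 genes whose locus also has a suffix but whose symbol is a standard name had medians of 63.5 RPKM in ZGR3 and 76.7 RPKM in ZTW1. The 723 unnamed ORFs without a suffix had 21.2 RPKM in ZGR3 and 23.0 RPKM in ZTW1. Within the suffixed ORFs the split was alike: the 38 that RefSeq now names had medians of 60.9 RPKM in ZGR3 and 64.1 RPKM in ZTW1. The 90 ORFs outside Ty elements that RefSeq matched and left unnamed had medians of 4.23 RPKM in ZGR3 and 4.13 RPKM in ZTW1.

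**Figure D1:**
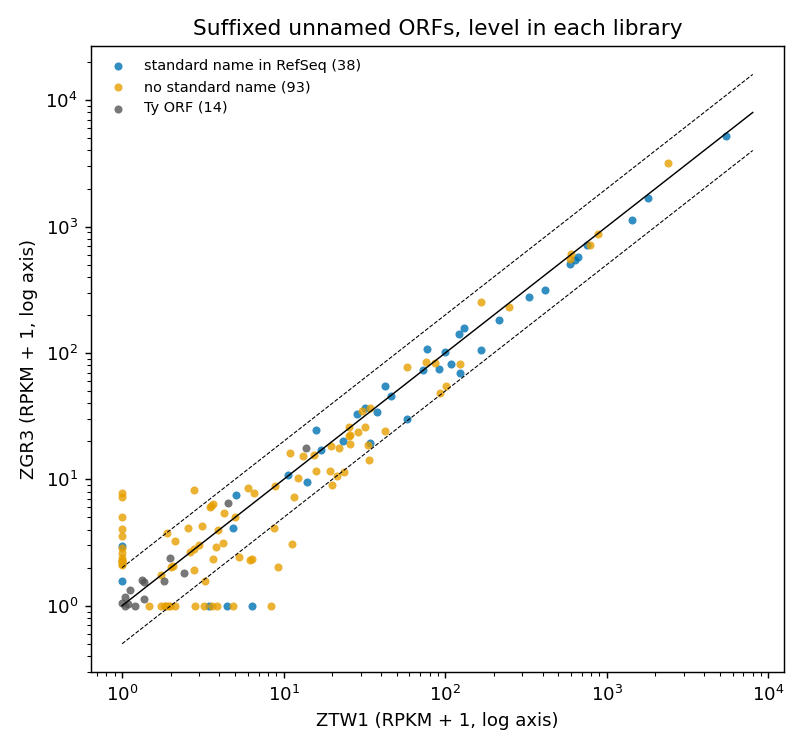
Level of each of the 145 suffixed ORFs in ZGR3 (vertical axis) and ZTW1 (horizontal axis), as RPKM + 1 on log axes, with colours for ORFs named in RefSeq, unnamed ORFs and Ty ORFs. The solid line marks equal levels and the dashed lines 2-fold differences; points above 100 RPKM lie between the dashed lines, and points off them are at low levels.

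The ORF with the highest level was YPR036W-A (SPO24) on chromosome XVI, which encodes a small protein of the prospore membrane made during sporulation. It had 4912 reads in ZGR3 and 5219 reads in ZTW1, or 5223 RPKM in ZGR3 and 5489 RPKM in ZTW1, and ranked 18 of all genes by mean level. The fold of ZGR3 over ZTW1 was 0.952 (0.915 to 0.990), so the libraries differed by little more than counting error. YLR307C-A (DPA10), a putative mitochondrial protein of unknown function on chromosome XII, had 2036 reads in ZGR3 and 2203 reads in ZTW1, a fold of 0.934 (0.879 to 0.993). It ranked 90 of all genes.

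YLR154C-G was the second in level and, of the 12 highest, the one whose interval lay above 1. It had 2207 reads in ZGR3 and 1668 reads in ZTW1, a fold of 1.34 (1.26 to 1.43). This 150-base ORF lies inside the ribosomal RNA genes RDN25-2 and RDN37-2, per its RefSeq note, so its reads cannot be told apart from those of ribosomal RNA, and the ribosomal DNA is a repeated array. RRT15, a short ORF found in a screen for altered ribosomal DNA transcription and by the same methods, had 2292 reads in ZGR3 and 1790 reads in ZTW1, a log2 ratio of 0.37 beside 0.42 for YLR154C-G. TAR1, antisense to ribosomal RNA, had 39640 reads in ZGR3 and 41107 reads in ZTW1, a log2 ratio of −0.04. Strand handling is not stated, so TAR1 reads cannot be told apart from those of ribosomal RNA either. The part of ribosomal RNA left after poly(A) selection in these differences was not tested. Without YLR154C-G the suffixed ORFs held 0.390% of reads in ZGR3 (0.384 to 0.396) and 0.424% in ZTW1 (0.418 to 0.430).

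YDR524C-B and YCL048W-A are paralogs from the whole genome duplication, both of unknown function. YDR524C-B, whose fusion protein was placed in the endoplasmic reticulum, had 802 reads in ZGR3 and 829 in ZTW1, a fold of 0.978 (0.887 to 1.08). YCL048W-A, placed at the cell periphery and vacuole, had 280 reads in ZGR3 and 184 in ZTW1, a fold of 1.54 (1.27 to 1.86). The interval held 1 for the more abundant copy and lay above 1 for the other. Coverage of their lengths in the libraries was 98.8% to 99.5%, and sharing of reads between the copies was not tested.

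Several abundant ORFs of unknown function had like levels in both libraries. YBL029C-A, placed at the cell periphery, had 795 reads in ZGR3 and 793 in ZTW1. YMR122W-A (NCW1) had 840 reads in ZGR3 and 890 in ZTW1, and YER053C-A, a 114-base ORF, had 291 in ZGR3 and 312 in ZTW1. The intervals of these 3 folds held 1. YBR085C-A, placed in cytoplasm and nucleus, had 846 reads in ZGR3 and 940 in ZTW1, with a fold of 0.910 whose interval ended just under 1.

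**Figure D2:**
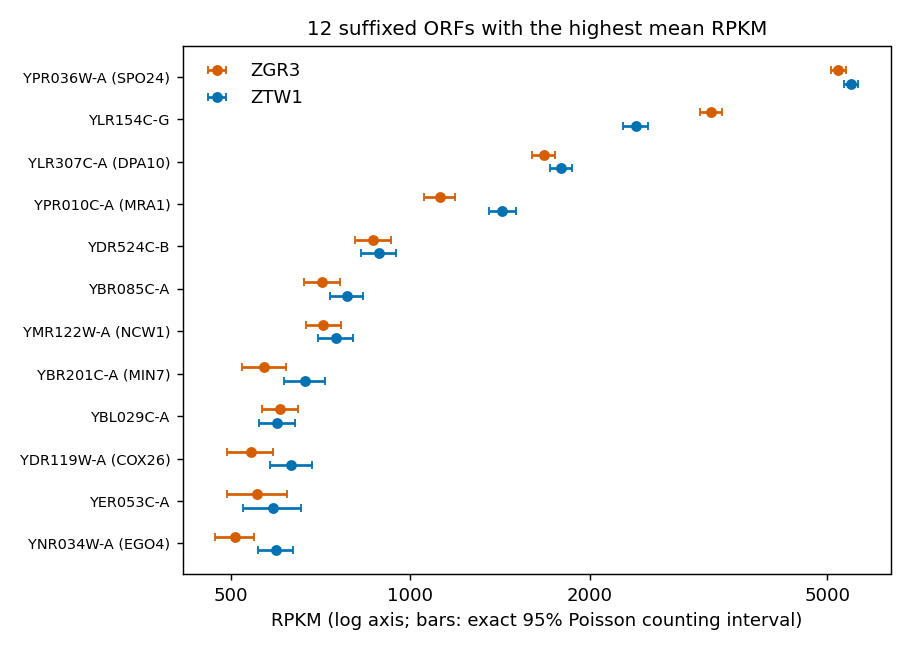
RPKM (log axis) of the 12 suffixed ORFs with the highest mean level, in ZGR3 (upper point of each pair) and ZTW1 (lower point), with exact 95% Poisson counting intervals as bars. YPR036W-A stands at 5223 RPKM in ZGR3 and 5489 RPKM in ZTW1, and YLR154C-G has its ZGR3 point clearly to the right of its ZTW1 point.

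A group of suffixed ORFs encodes small proteins linked to the respiratory chain and the ATP synthase. These complexes of the mitochondrial inner membrane make ATP from respiration. The proteins are subunits, assembly factors, a negative regulator of complex assembly and a protein that associates with supercomplexes. This group of 7 was put together after its values had been seen, so its direction is a description. Of the 7, 6 were lower in ZGR3, all 6 with a counting interval below 1, and the median log2 ratio was −0.39. With at least 20 reads, the interval lay below 1 for 20.2% of all genes and 26.9% of named genes of at most 462 bases, shares that depend on depth. Of 125 other genes of that length with mitochondria in their RefSeq note, 100 were below 0, with a median of −0.30. Summed, the 7 suffixed ORFs had 2542 reads in ZGR3 and 3210 reads in ZTW1. Of these, YPR010C-A (MRA1) alone had 1131 in ZGR3 and 1456 in ZTW1.

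YDR119W-A (COX26), a subunit of cytochrome c oxidase, had 500 reads in ZGR3 and 591 in ZTW1, a fold of 0.855 (0.758 to 0.965). YOR020W-A (MCO10), a subunit of the ATP synthase, had 397 reads in ZGR3 and 525 in ZTW1, a fold of 0.765 (0.669 to 0.873). YPR010C-A (MRA1), a negative regulator of respiratory complex assembly and the fourth in level, had 1131 reads in ZGR3 and 1456 in ZTW1, a fold of 0.785 (0.726 to 0.849). In each of these 3 the shortfall in ZGR3 was modest and lay outside counting error.

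The folds of 3 assembly factors were lower still. YDR379C-A (SDH6), which helps mature succinate dehydrogenase, had 116 reads in ZGR3 and 185 in ZTW1, a fold of 0.634 (0.498 to 0.804). YMR244C-A (COA6), which takes part in copper delivery to cytochrome c oxidase, had 117 reads in ZGR3 and 159 in ZTW1, a fold of 0.744 (0.581 to 0.951). YDR381C-A (COI1), an assembly factor of several respiratory complexes, had 46 reads in ZGR3 and 91 in ZTW1, a fold of 0.511 (0.351 to 0.736). YBR255C-A (RCF3), which associates with respiratory supercomplexes, went the other way with 235 reads in ZGR3 and 203 in ZTW1, and its interval held 1.

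Other ORFs with mitochondrial products did not share one direction. YCL057C-A (MIC10), which shapes crista junctions as part of the MICOS complex, had 376 reads in ZGR3 and 449 in ZTW1, a fold of 0.847 (0.736 to 0.973). YAL044W-A (BOL1), of iron-sulphur cluster assembly, had 278 reads in ZGR3 and 332 in ZTW1, a fold of 0.847 (0.719 to 0.996). YBR201C-A (MIN7) had 535 reads in ZGR3 and 632 in ZTW1, a fold of 0.856 (0.761 to 0.962). These 3 were lower in ZGR3 by about the same small amount. Outside the mitochondrial ORFs, YDR461C-A (CMI8), a putative cytosolic protein, had 83 reads in ZGR3 and 102 in ZTW1, and its interval held 1.

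YIL156W-B (ATG44), the mitochondrial fission factor needed for mitophagy, had 160 reads in ZGR3 and 135 in ZTW1, and its interval held 1. YJL133C-A (DPI8), a putative mitochondrial protein, had 110 reads in ZGR3 and 80 in ZTW1, a fold of 1.39 (1.03 to 1.88). The outer membrane proteins YJL127C-B (MCO6), with 74 reads in ZGR3 and 73 in ZTW1, and YLR099W-A (MIM2), with 40 in ZGR3 and 45 in ZTW1, had like counts. YIL002W-A (CMI7) had 70 reads in each, and YBL039W-B (MIN6) had 37 in ZGR3 and 38 in ZTW1. YGL041W-A (DPC13), with 22 reads in ZGR3 and 26 in ZTW1, also had an interval that held 1.

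In all, 22 suffixed ORFs had mitochondria in their RefSeq note, and 18 of them had at least 20 reads over both libraries. Their median log2 ratio was −0.18, with 12 of 18 below 0. YDR119W-A (COX26) is not among the 22, because its note does not name mitochondria. The 845 other genes with such a note had a median of −0.17, and the 125 of these of at most 462 bases had −0.30, with 100 of 125 below 0. The median of the suffixed ORFs was thus near that of all other genes with such a note and less low than that of the short ones; neither difference was tested.

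The 2-fold rule counted ORFs with a log2((RPKM ZGR3 + 1)/(RPKM ZTW1 + 1)) of at least 1 or at most −1 among those with a mean of at least 1 RPKM, a scale that understates differences at low levels. Of 116 such suffixed ORFs, 6 were at least 2-fold higher in ZGR3, where 0.542% of all genes were, and 18 at least 2-fold lower, where 1.92% of all genes were. The share past 2-fold was 20.7% for them and 2.46% for all genes. Most of these ORFs had only a few reads: the counting interval lay off 1 for 0 of the 6 and 3 of the 18. Without ORFs found in 1 library only, 1 was higher and 10 lower, and with reads per M reads in place of RPKM, 1 was higher and 1 lower.

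The share past 2-fold differed between classes of depth, again among ORFs with a mean of at least 1 RPKM. Of 33 ORFs with 1 to 2 reads over both libraries, 12 reached that mean, and 8 of the 12 passed 2-fold. Of the 33, 28 had no read in 1 library, and such an ORF always passes if it reaches that mean. Of those with 3 to 9 reads 13 of 27 passed. None of 8 with 10 to 19 reads passed, 3 of 34 with 20 to 99 reads did, and none did of 24 with at least 100 but under 1000 reads or of 11 with at least 1000. With at least 20 reads asked for, 69 suffixed ORFs remained, of which 0 were 2-fold higher and 3 were 2-fold lower in ZGR3. Over all genes, 0.353% were higher and 1.41% lower under this rule. The share past 2-fold was 4.35% for the suffixed ORFs, 3.85% for named genes of at most 462 bases and 1.76% for all genes.

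The 69 ORFs leaned towards lower values in ZGR3, as did other short genes. Their median log2 ratio was −0.14, with 44 of 69, or 63.8%, below 0. Named genes of at most 462 bases had a median of −0.14 and 64.7% below 0, while 51.8% of all genes lay below 0. Among all genes with a mean of at least 1 RPKM, suffixed ORFs included, those of at most 462 bases had a median of −0.14. Longer genes had −0.00. The part of gene length in the result was not tested further. The median of the 116 suffixed ORFs was −0.10, and it turned to 0.08 when the running median over genes of like length was subtracted. That running median includes the suffixed ORFs, which are thus set in part against themselves.

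**Figure D3:**
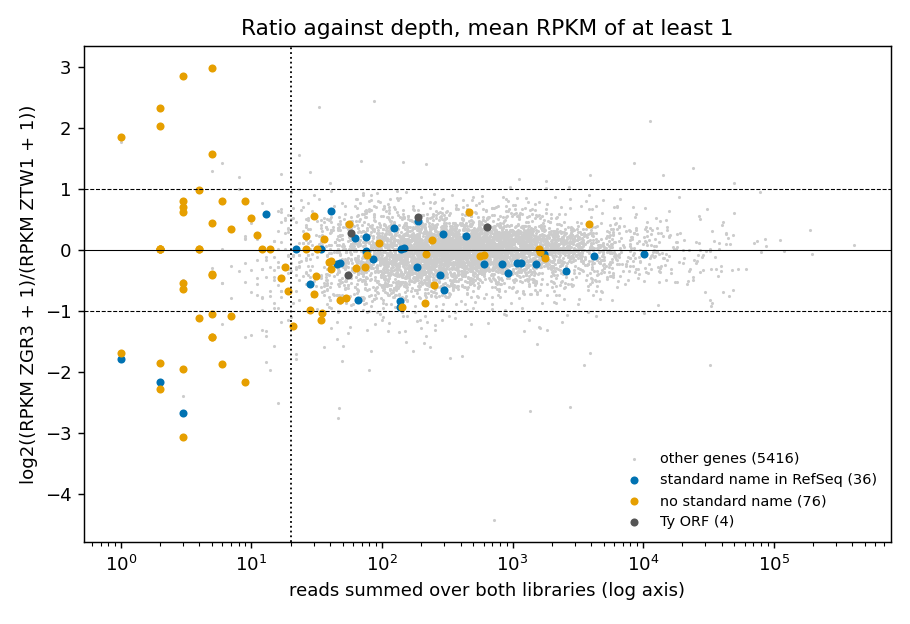
Log2 ratio of ZGR3 over ZTW1 (RPKM + 1) against reads summed over both libraries (log axis), for genes with a mean of at least 1 RPKM; coloured points are suffixed ORFs and grey points other genes. The dotted line marks 20 reads and the dashed lines 2-fold; to the right of the dotted line 3 suffixed ORFs lie below the lower dashed line and 0 above the upper.

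The 3 ORFs past 2-fold with at least 20 reads were all shallow. YOL159C-A, whose overexpression affects endocytic traffic, had 10 reads in ZGR3 and 24 in ZTW1, a fold of 0.421 (0.180 to 0.914). YIL102C-A, the regulatory subunit of dolichyl phosphate mannose synthase, had 11 reads in ZGR3 and 24 in ZTW1, a fold of 0.463 (0.205 to 0.983). YJL077W-B, found by gene-trapping, had 6 reads in ZGR3 and 15 in ZTW1, and its interval of 0.129 to 1.10 held 1. All 3 were within a few reads of the threshold, and YDR246W-A, found by fungal homology and RT-PCR, lay just short of it with 9 reads in ZGR3 and 19 in ZTW1, a log2 ratio of −0.99.

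Other ORFs lay short of 2-fold, each with an interval below 1. YER039C-A, a non-essential ORF, had 48 reads in ZGR3 and 94 in ZTW1, a fold of 0.516 (0.357 to 0.739). YER188C-A, of unknown function, had 75 reads in ZGR3 and 140 in ZTW1, a fold of 0.542 (0.404 to 0.722). YDR034W-B (CPP3), a tail-anchored plasma membrane protein, had 49 reads in ZGR3 and 89 in ZTW1, a fold of 0.557 (0.385 to 0.798). YDR374W-A (WIP1), a kinetochore protein and relative of human CENP-W, had 23 reads in ZGR3 and 42 in ZTW1, a fold of 0.554 (0.318 to 0.942). Together with YDR381C-A these had folds between 0.511 and 0.557. YDL085C-A had a fold in this range, 0.555, but with 17 reads in ZGR3 and 31 in ZTW1 its interval of 0.288 to 1.03 held 1.

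By the interval of the fold, 20 of the 69 lay below 1, or 29.0%, against 20.2% of all genes and 26.9% of named genes of at most 462 bases. Above 1 lay 5 of the 69, or 7.25%, against 18.3% of all genes and 7.93% of named genes of that length. An interval leaves 1 more readily at greater depth, and 34 of the 69 had only 20 to 99 reads. The lists differ in depth, so their shares are not like for like. The 5 ORFs above 1 were YLR154C-G, YCL048W-A, YJL133C-A and 2 Ty ORFs. YCR024C-B, named here after its values were seen, was among the lower ones with 100 reads in ZGR3 and 152 in ZTW1, a fold of 0.665 (0.512 to 0.862).

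**Figure D4:**
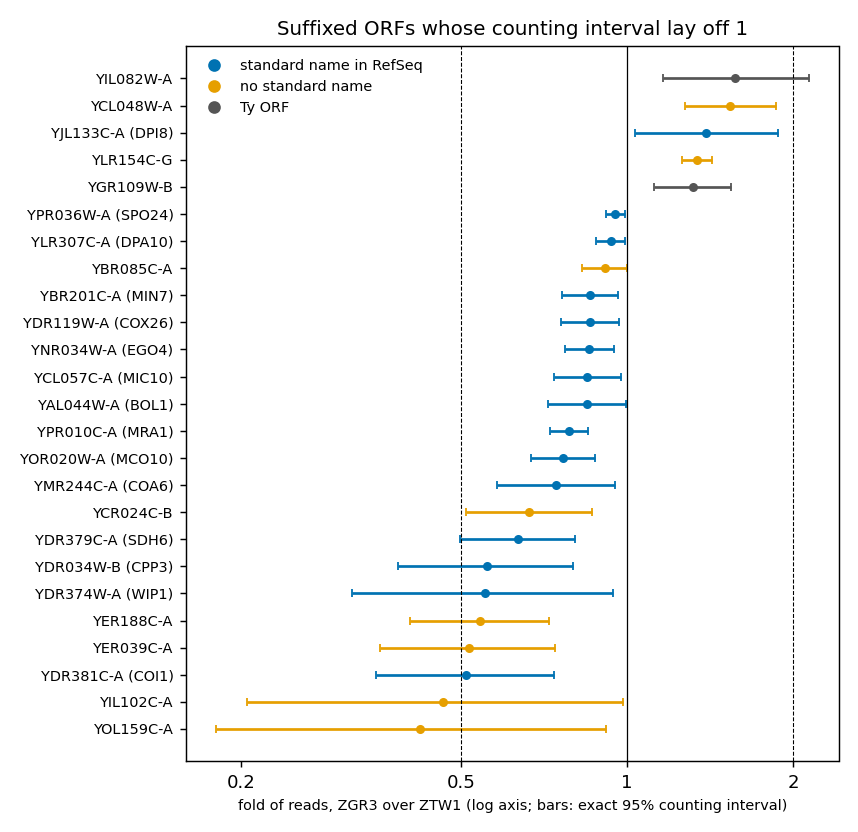
Fold of reads, ZGR3 over ZTW1 (log axis), with exact 95% counting intervals as bars, for the 25 suffixed ORFs with at least 20 reads whose interval did not hold 1. Of these, 5 lie above 1, among them both Ty3 ORFs, and 20 below, led by YOL159C-A at 0.421.

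Further pairs and complexes gave the following counts. YNR034W-A (EGO4), expressed at the diauxic shift and in stationary phase, had 695 reads in ZGR3 and 823 in ZTW1, a fold of 0.854 (0.771 to 0.946). Its paralog YCR075W-A (EGO2), a subunit of the vacuolar EGO complex that acts in nutrient signalling, had 17 reads in each library. The histone-fold proteins YOL086W-A (MHF1) and YDL160C-A (MHF2) form 1 complex, yet the first had 40 reads in ZGR3 and 35 in ZTW1 and the second 11 in each. Of these 4 ORFs, the interval lay off 1 for EGO4.

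YGR169C-A (LSO2), a ribosome-associated protein needed to resume translation after starvation, had 69 reads in ZGR3 and 54 in ZTW1, a fold of 1.29 (0.892 to 1.88). YJR005C-A (LSO1), whose transcription responds to iron deprivation, had 11 reads in ZGR3 and 17 in ZTW1, a fold of 0.654 (0.277 to 1.48). Both intervals held 1, so no difference was detectable at this depth. YOR304C-A (BIL1), a Bud6 partner in actin cable assembly, had 25 reads in ZGR3 and 16 in ZTW1, a log2 ratio of 0.63. YLR363W-A, of the nucleus, had 18 in ZGR3 and 12 in ZTW1, a log2 ratio of 0.56. Both were among the 8 highest ratios of ORFs with at least 20 reads, and their intervals held 1 too.

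The Ty ORFs had few reads for their length. The 14 held 588 reads in ZGR3 and 468 in ZTW1, and their highest level was 16.8 RPKM in ZGR3 and 12.8 RPKM in ZTW1. The 2 Ty3 ORFs held most of these, 475 reads in ZGR3 and 351 in ZTW1, a fold of 1.37 (1.19 to 1.58). YGR109W-B had 360 reads in ZGR3 and 277 in ZTW1, a fold of 1.31 (1.12 to 1.54), and YIL082W-A had 115 in ZGR3 and 74 in ZTW1, a fold of 1.57 (1.16 to 2.13). Reads covered 17.9% to 34.5% of their length.

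The other Ty families were near the limit of detection. The 5 Ty1 ORFs summed to 26 reads in ZGR3 and 23 in ZTW1, and the 6 Ty2 ORFs to 87 in ZGR3 and 89 in ZTW1, both with intervals that held 1. YOR343W-B, a Ty2 ORF, had 15 reads in ZGR3 and 8 in ZTW1. YHL009W-B of Ty4, at 5409 bases the longest ORF of the set, had 0 reads in ZGR3 and 5 in ZTW1. At most 4.08% of the length of any Ty1, Ty2 or Ty4 ORF was covered. Copies of a Ty family are nearly identical, and only uniquely assigned reads were counted, so the level of each copy is uncertain and sums can understate a family.

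Reads in 1 library only were common among the suffixed ORFs and always few. Both libraries had reads for 111 ORFs, ZGR3 alone for 16 and ZTW1 alone for 18. Of all genes, 80 or 1.41% had reads in 1 library only, and these 34 are among them. YCR095W-A had 5 reads in ZGR3 and 0 in ZTW1. With the empty library set to a floor of 3 counts, it was 1.69-fold higher in ZGR3. This is no lower bound, since its counting interval held 1. YHL009W-B, with 0 reads in ZGR3 and 5 in ZTW1, was by the same floor 1.65-fold lower in ZGR3, and its interval held 1 as well. No other ORF absent from a library had 5 reads in the other, so none of these absences was detectable as a difference at this depth.

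The list of barely detected ORFs held some with known products. YBR296C-A (TYC1), an inhibitor of the anaphase-promoting complex, had 0 reads in ZGR3 and 3 in ZTW1. YNL097C-B (PLS1), a peroxisomal regulator of lysine synthesis, had 0 reads in ZGR3 and 2 in ZTW1. These 2 were named after their values were seen. The shortest ORFs, YAR035C-A of 81 bases and YJL136W-A of 84 bases, were barely seen: the first had 2 reads in ZGR3 and 1 in ZTW1, and the second 1 in ZGR3 and 0 in ZTW1. YDR179W-A (NVJ3), a possible tether of endoplasmic reticulum and vacuole and the longest outside Ty elements, had 20 reads in ZGR3 and 25 in ZTW1.

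Each suffixed ORF was set beside the gene that bears the same number without the suffix, usually a close neighbour. Of 114 pairs outside Ty elements, the suffixed ORF had the higher mean RPKM in 38. Across these pairs, which share libraries and are not independent replicates, the log levels had a Pearson r of −0.11 and a Spearman rho of −0.11. For the log2 ratios of 58 pairs with at least 20 reads in the suffixed ORF, r was 0.08 and rho 0.10, and 31 pairs had the same sign.

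Some suffixed ORFs of low or moderate level stood beside very abundant genes. YJL052C-A had 1 read in each library beside TDH1, a glyceraldehyde phosphate dehydrogenase gene, with 19161 reads in ZGR3 and 19230 in ZTW1. YMR175W-A had 4 reads in ZGR3 and 3 in ZTW1 beside SIP18, a desiccation tolerance gene, with 5793 in ZGR3 and 6031 in ZTW1. YBR230W-A (COQ21) had 33 reads in ZGR3 and 29 in ZTW1 beside OM14, of the mitochondrial outer membrane, with 6262 in ZGR3 and 6483 in ZTW1. YDL085C-A, a homolog of the human aggregation factor SERF, had 17 reads in ZGR3 and 31 in ZTW1 beside NDE2, an external NADH dehydrogenase gene, with 8555 in ZGR3 and 6716 in ZTW1. These are the 4 pairs in which the numbered gene had a mean above 1000 RPKM, and all 4 suffixed ORFs were far below it.

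Neighbouring genes can still touch a value where they overlap, since no source used here says whether reads were counted by strand. YIL102C-A shared its direction with YIL102C, which had 4 reads in ZGR3 and 8 in ZTW1, and YOL159C-A with YOL159C, which had 44 in ZGR3 and 63 in ZTW1. YDR379C-A did not share it with RGA2, a Cdc42 regulator gene with 353 reads in ZGR3 and 290 in ZTW1. YER039C-A was lower together with HVG1, with 356 reads in ZGR3 and 462 in ZTW1.

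ORFs that share a number were next examined. Under YDR034, all 3 were lower in ZGR3: YDR034W-B (CPP3), YDR034C-A with 19 reads in ZGR3 and 34 in ZTW1, and the Ty2 ORF YDR034C-D with 20 in ZGR3 and 35 in ZTW1. The numbered gene LYS14, a regulator of lysine synthesis, had 240 reads in ZGR3 and 281 in ZTW1. YDR034C-A lies in a solo long terminal repeat of Ty1, per its RefSeq note. Reads equal to copies elsewhere may thus be missing from its count of unique assignments. Beside YDR524C-B, the 90-base YDR524W-C had 32 reads in ZGR3 and 24 in ZTW1, and its interval held 1.

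By chromosome, the 15 suffixed ORFs of chromosome IV with at least 20 reads had a median log2 ratio of −0.41, with 12 of 15 below 0. The other 693 genes of chromosome IV had a median of 0.00, and the 67 of these with at most 462 bases had −0.07. All 3 suffixed ORFs of chromosome V with such depth were lower, with a median of −0.87, where 253 other genes had −0.00 and the 34 short ones −0.14. On chromosome XII the median of 5 was 0.10, YLR154C-G included. These groups were set apart after their values were seen and are given as a description.

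The evidence named in the deposited description of an ORF went with its level. These classes are not all ways in which an ORF was found. A placed fusion protein took precedence over homology, as for YDR379C-A, whose description names both. The 12 whose deposited description places a green fluorescent protein fusion in the cell had medians of 74.4 RPKM in ZGR3 and 115 RPKM in ZTW1. The 16 whose description names homology, conservation or genome comparison without RT-PCR had 53.3 RPKM in ZGR3 and 52.8 RPKM in ZTW1. The 56 with no method named had 10.2 RPKM in ZGR3 and 12.9 RPKM in ZTW1. Lower medians were found for 12 ORFs from mass spectrometry, with 6.22 RPKM in ZGR3 and 4.71 RPKM in ZTW1, and 15 from fungal homology with RT-PCR, with 3.24 RPKM in ZGR3 and 5.20 RPKM in ZTW1. The 15 from gene-trapping had 2.95 RPKM in ZGR3 and 2.82 RPKM in ZTW1, and the 5 from serial analysis of gene expression (SAGE) 2.26 RPKM in ZGR3 and 2.24 RPKM in ZTW1. The classes were drawn up after the descriptions had been read, and the order below the first 3 rests on ORFs with few reads. The classes also differed in length. Median lengths were 247.5 bases for placed fusions, 249 for homology without RT-PCR, 225 for mass spectrometry, 147 for gene-trapping and 96 for SAGE. The separate parts of evidence and length in the level were not tested.

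**Figure D5:**
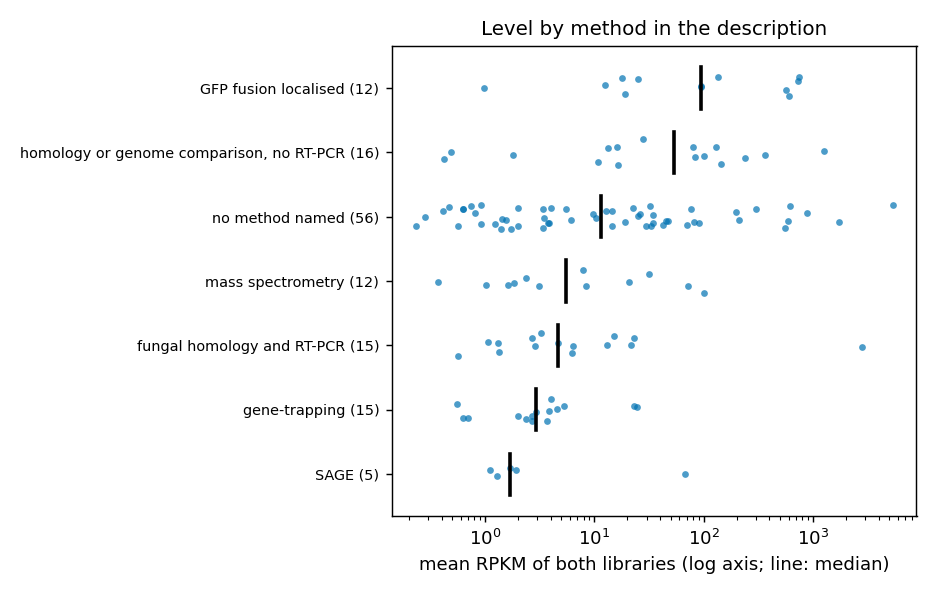
Mean RPKM of both libraries (log axis) of the 131 suffixed ORFs outside Ty elements, by the method named in their deposited description, 1 point per ORF, with the median as a black line and the number of ORFs in brackets. ORFs with a localised green fluorescent protein fusion lie highest and those from gene-trapping and SAGE lowest, with YLR154C-G as the lone high point among those found by fungal homology and RT-PCR.

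Level also went with length. The 30 ORFs of at most 150 bases had medians of 2.77 RPKM in ZGR3 and 2.78 RPKM in ZTW1, and the next 38, of at most 210 bases, 6.80 RPKM in ZGR3 and 5.49 RPKM in ZTW1. The 38 after these, of at most 270 bases, had 15.7 RPKM in ZGR3 and 17.2 RPKM in ZTW1, and the 25 longest 31.8 RPKM in ZGR3 and 33.2 RPKM in ZTW1. In the shortest class the median ORF had 1.5 reads in each library, so levels there rest on single reads.

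Suffixed loci with a standard symbol in the tables give the scale of the set. DDR2, a stress response gene, had 6857 reads in ZGR3 and 7584 in ZTW1, and HOR7 2838 in ZGR3 and 2786 in ZTW1. ISD11, the activator of the mitochondrial cysteine desulphurase, had 89 reads in ZGR3 and 171 in ZTW1, a fold of 0.526 (0.403 to 0.684). MOB2, an activator of the Cbk1 kinase, had 64 reads in ZGR3 and 39 in ZTW1, a fold of 1.66 (1.10 to 2.54). The ubiquitin-like HUB1, with 48 reads in ZGR3 and 31 in ZTW1, and OST5, an oligosaccharyltransferase subunit with 7 in ZGR3 and 14 in ZTW1, had intervals that held 1.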

How the data were processed

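Each deposited table lists for every gene, per the file headers, its length, RPKM, the percent of length covered by reads, and a read count of unique assignments. The authors' RPKM values were recovered from reads, length and library total for all 5659 genes. A gene with no row in a library was given 0 reads. Listed lengths, all divisible by 3, are coding lengths. According to the submitters' processing notes the build was sacCer2; aligner, read filters and strand handling are not stated there. RefSeq R64 served for names, notes, chromosomes and Ty families only; since the builds differ, no coordinates or sequences are given, and protein sequences were not used here.

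The suffixed ORFs, lists and alternatives were chosen with earlier results of these data known. Named ORFs were the 12 highest in mean RPKM, the 8 highest and 8 lowest log2 ratios with at least 20 reads, those absent from 1 library with at least 5 reads in the other, the 2 longest and 2 shortest, those RefSeq names with at least 20 reads, YDR524C-B and YCL048W-A, their numbered genes, and 6 named suffixed loci. Of these, a selection by role is printed. Ratios used a pseudocount of 1 RPKM; folds used reads per total reads, with 3 counts as the floor for an empty library. There were no molecular identifiers. The steps were tested on simulated data, in which genes with more reads than most suffixed ORFs were changed by more than 2-fold. Recovery of changes at low depth was not tested. Replicates being absent, no test was run. Alternatives were other pseudocounts, filters, centring, TMM scaling, reads per M reads, a 3-fold rule and a length correction. The software was R 4.3.3 with edgeR 4.0.16 (TMM factors only) and Python 3.11.15 with scipy 1.17.1, numpy 2.4.6, pandas 2.3.3 and matplotlib 3.10.9.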

Additional observations from a re-analysis of the deposited data

How the results depend on the processing

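Depth limits the counts past 2-fold, most of which were ORFs with few reads, and with 1 library per strain the spread between cultures is unknown. The 6 higher in ZGR3 became 2 with a pseudocount of 5 RPKM, 15 with no filter on low values, 0 with a mean of at least 10 RPKM, 1 with reads per M reads in place of RPKM, and 1 without ORFs found in 1 library only. The 18 lower became 5, 3 and 1 with that pseudocount, the minimum of 10 RPKM and reads per M reads, 10 without ORFs found in 1 library only and 10 under a 3-fold rule. The 3 lower with at least 20 reads became 1 with a pseudocount of 5 RPKM, 0 with reads per M reads, a unit in which a pseudocount of 1 weighs more on short genes, and 0 with at least 50 reads. The median log2 ratio of −0.10 became 0.0841 with the running median by length subtracted, a running median that includes the suffixed ORFs. Under the other alternatives run, the median log2 ratio lay between −0.17 and −0.07. The share of reads was 0.523% in ZGR3 and 0.540% in ZTW1 without the 10 genes with the most reads in the denominator. Without YLR154C-G, an alternative added after seeing the data, it was 0.390% in ZGR3 and 0.424% in ZTW1. For 50 named ORFs with reads in both libraries, 0 of 250 alternative log2 ratios left the counting interval, which is wide at low depth. The largest shift was 0.56. Of these ratios 0 changed sign, but other pseudocounts and reads per M reads cannot change it. Centring and TMM scaling moved ratios by small amounts only, so the count of sign changes says little. The 3 with reads in 1 library have unbounded intervals, and their ratios moved widely: YCR095W-A, at 2.97, lay between 1.06 and 6.11, YJL136W-A, at 1.84, between 0.28 and 4.75, and YHL009W-B, at −0.26, between −1.58 and −0.06. TMM scaling shifted the median of all genes by 0.02. No paired analysis was possible because each strain has 1 library. The cause of the other changes was not tested.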
